A study of Mus musculus with 12 samples.

Results

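The Sprouty, Spred, Dusp and Etv feedback genes are 10 genes read here across the culture conditions of adult mouse neural stem cells (NSCs). They are Spry1, Spry2, Spry4, Spred1, Spred2, Dusp4, Dusp6, Etv1, Etv4 and Etv5, chosen by name as known outputs of FGF and MAPK signaling, and they stand among 17365 genes in the deposited count table. All 10 passed the filter on low counts, as did 13312 genes in all. RNA-seq was made from 12 libraries of 2 NSC lines derived from the subventricular zone (SVZ) of wild-type mice aged 6 to 8 weeks, ANS4 from the MF1 strain and BL6 from C57BL/6. Each line was grown for 3 days in each of 3 conditions, with 2 libraries per line and condition. EGF/FGF cultures received EGF and FGF2 at 10 ng/ml each and proliferate, BMP cultures received BMP4 at 10 ng/ml alone and give the dormant quiescent state named d-qNSC, and BMP/FGF cultures received BMP4 and FGF2 at 10 ng/ml each and give the primed quiescent state named p-qNSC. All cultures were adherent, at low density, serum-free and under 10 passages.

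FGF2 and EGF both act through receptor tyrosine kinases that switch on Ras, Raf, MEK and the kinases ERK1/2 in turn. Active ERK drives transcription of the Etv1, Etv4 and Etv5 factors and of the inhibitors that restrain the same route, so these genes are widely read as a transcriptional record of the pathway. Sprouty and Spred proteins act between the receptor and Raf, Dusp6 and Dusp4 remove phosphate from ERK, and the 3 Etv proteins form the PEA3 branch of the ETS transcription factors. BMP/FGF against BMP asks what FGF2 adds to BMP4. BMP against EGF/FGF differs by the loss of both growth factors and the gain of BMP4, and BMP/FGF against EGF/FGF by the loss of EGF and the gain of BMP4 with FGF2 kept. The latter 2 comparisons each change more than 1 factor, so the parts of those factors cannot be told apart.

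Library totals lay between 18069052 and 19451818 counts, and levels are given in CPM, a count scaled to the normalized library total. The lowest count of any of the 10 genes was 54, for Etv4 in a BMP library. Of the markers of NSCs and radial glia, 10 of 10 were tested, and the EGF/FGF libraries summed to 7703 to 8370 CPM, the BMP libraries to 10277 to 11480 and the BMP/FGF libraries to 13280 to 13754. For 8 proliferation markers the sums, with the conditions in that order, were 2463 to 2925, 415 to 608 and 297 to 314 CPM, and for 6 neuroblast markers they were 460 to 518, 911 to 1585 and 434 to 485 CPM. The neuroblast sum does not speak for each marker, since in BMP/FGF against EGF/FGF Dcx, Tubb3, Dlx1 and Dlx2 were higher (Dcx 1.29 CPM in EGF/FGF and 49.9 in BMP/FGF) and the abundant Cd24a and Sox11 lower (40.9% of tested genes were higher in that comparison). The NSC sum does not speak for each marker either, since 6 of 10 were higher and 4 lower against EGF/FGF in each quiescent state. Of tested genes, 40.8% were higher and 38.8% lower in BMP, and 40.9% and 38.0% in BMP/FGF. In BMP/FGF against BMP, 5 of the 10 NSC markers were higher and 0 lower (20.1% of tested genes were higher). Of 8 microglial markers, Aif1, C1qa and C1qb were not in the table and the others summed to at most 14.7 CPM. In such bulk cultures fewer cells expressing a gene and less RNA per cell cannot be told apart.

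The mean levels of the 10 genes were highest in the proliferating cultures and fell in both quiescent states, and 8 of them stood higher when FGF2 was kept beside BMP4. In BMP/FGF against BMP, 8 genes rose at FDR under 0.05 in edgeR's quasi-likelihood test (20.1% of the 13312 tested genes rose), and Dusp4 and Etv1 did not pass. In BMP against EGF/FGF all 10 were lower (38.8% of tested genes were lower), and in BMP/FGF against EGF/FGF all 10 were lower again (38.0% of tested genes). The median log2 fold change of the 10 genes was 0.83, -2.25 and -1.43 in these comparisons in turn, where the median of all tested genes was -0.0035, 0.019 and 0.022. The comparisons share libraries and are not independent of each other.

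**Figure D1:**
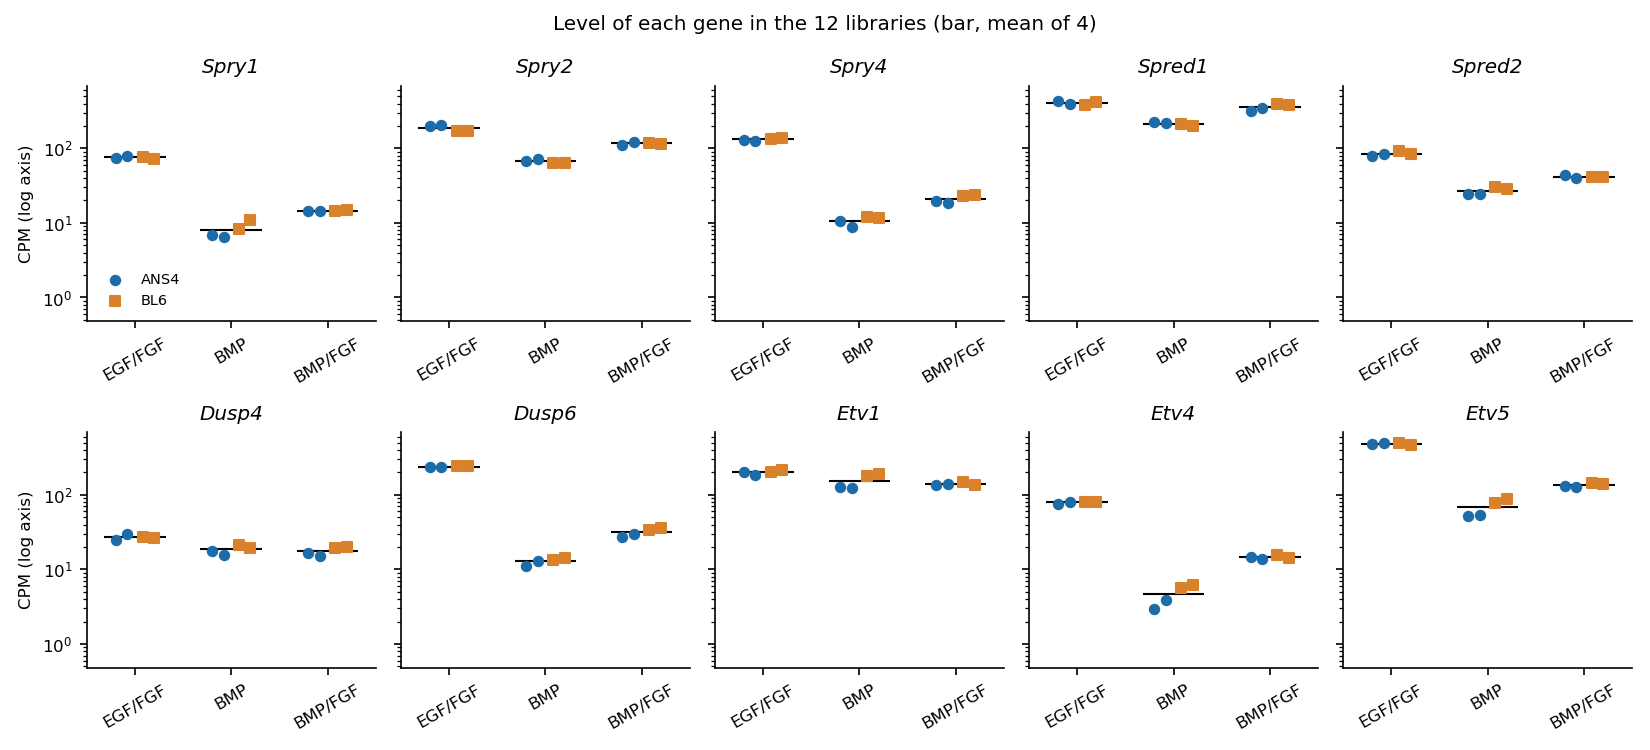
Level of each of the 10 genes in the 12 libraries, in CPM on a log axis, by culture condition, with ANS4 libraries as blue circles, BL6 libraries as orange squares and the mean of the 4 libraries as a bar. Of the 10 genes, 8 have all 4 BMP/FGF libraries above all 4 BMP libraries, and Dusp4 and Etv1 overlap there. The share of all tested genes that separate in this way was not counted.

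Among the Sprouty genes, Spry1 and Spry4 fell furthest in BMP against EGF/FGF and Spry2 fell less, and all 3 rose with FGF2. Sprouty proteins are membrane-bound inhibitors of growth factor signaling, induced by the signal that they dampen. Values of single libraries are given for ANS4 replicates 1 and 2 and then BL6 replicates 1 and 2. Spry1 (ENSMUSG00000037211, chr3:37639947-37644598, plus strand, GRCm38) had 74.4, 78.6, 77.4 and 73.1 CPM in EGF/FGF, 6.79, 6.53, 8.19 and 10.8 CPM in BMP, and 14.3, 14.5, 14.4 and 14.7 CPM in BMP/FGF. The 3 conditions did not overlap. The coefficient of variation was 24.4% in BMP, where both BL6 libraries were above both ANS4 libraries, against 3.41% in EGF/FGF and 1.44% in BMP/FGF. Its log2 fold change was 0.84 (SE 0.11, FDR = 1.66e-05) in BMP/FGF against BMP, a 1.79-fold rise. It fell by 3.23 (SE 0.11, FDR = 1.19e-14) in BMP against EGF/FGF on the log2 scale, which leaves 10.6% of the EGF/FGF level, and the BMP/FGF level was 19.1% of it.

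Spry4 (ENSMUSG00000024427) had 129, 126, 135 and 138 CPM in EGF/FGF, 10.6, 8.91, 11.97 and 11.5 CPM in BMP, and 19.8, 18.3, 23.1 and 23.7 CPM in BMP/FGF. Again no library of one condition reached another condition, and the 2 lines kept the same order in all 3. The log2 fold change with FGF2 was 0.98 (SE 0.08, FDR = 3.59e-08), a 1.97-fold rise, which in ANS4 was 0.96 and in BL6 0.99. Spry4 retained 8.12% of its EGF/FGF level in BMP and 16.0% in BMP/FGF.

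Spry2 (ENSMUSG00000022114, chr14:105891947-105896819, minus strand) had 199, 203, 169 and 172 CPM in EGF/FGF, 68.1, 72.3, 63.7 and 62.9 CPM in BMP, and 113, 123, 119 and 113 CPM in BMP/FGF. It kept more of its level in quiescence than Spry1 or Spry4 did, with 36.0% in BMP and 63.1% in BMP/FGF. The rise with FGF2 was 0.81 (SE 0.06, FDR = 1.85e-08) on the log2 scale. ETS factors bind a core written CCGGAA, and the transcriptional repressor Cic, which ERK relieves, binds TGAATGAA or TGAATGGA. RefSeq windows on GRCm38.p6, from 250 bases before to 50 after a start, were read for 7 of the 10 genes in 9 entries (Spry1, Spry2, Spred1, Spred2, Dusp6, and Etv1 and Etv5 with more than 1 each) and searched on both strands for these letters, for the AP-1 element TGANTCA and for the cAMP response element TGACGTCA. No entry was read for Spry4, Dusp4 and Etv4. The only match was CCGGAA in the Spry2 window, in exon 1 and the untranslated leader of Spry2-201, beginning 33 bases downstream of the start. It is shown, in capitals and on the strand of the gene at chr14:105896770-105896799, because it is the one place where these windows held a searched element.
Spry2 leader: gaggtcatctatcCCGGAAtccgggagggt
Of all 32851 RefSeq windows, 14.9% hold CCGGAA, 7.81% TGANTCA, 1.79% TGACGTCA, 1.30% TGAATGAA and 1.21% TGAATGGA. The match is a description of these letters and was not tied to binding.

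The 2 Spred genes, whose proteins bind neurofibromin and bring it to Ras, fell in BMP and rose with FGF2. Spred1 (ENSMUSG00000027351, chr2:117121374-117182279, plus strand) had 430, 390, 382 and 417 CPM in EGF/FGF, 227, 217, 213 and 198 CPM in BMP, and 314, 348, 395 and 385 CPM in BMP/FGF. The BMP libraries lay below all others, whereas the BMP/FGF and EGF/FGF libraries overlapped. Spred1 rose by 0.75 (SE 0.07, FDR = 5.27e-07) in BMP/FGF against BMP on the log2 scale, and its BMP/FGF level was 88.8% of the EGF/FGF level. That last difference, -0.17 (SE 0.07, FDR = 0.0426), was the weakest of the calls against EGF/FGF and was lost in 7 of 22 alternative settings, among them the omission of any of 4 libraries (FDR = 0.0886 without BL6 EGF/FGF replicate 2, 0.0932 without ANS4 BMP/FGF replicate 2, 0.136 without ANS4 EGF/FGF replicate 1 and 0.161 without ANS4 BMP/FGF replicate 1).

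Spred2 (ENSMUSG00000045671, chr11:19924375-20024026, plus strand) had 79.9, 84.5, 90.9 and 83.1 CPM in EGF/FGF, 24.6, 24.5, 30.7 and 28.5 CPM in BMP, and 43.7, 40.7, 41.9 and 41.0 CPM in BMP/FGF, with no overlap between conditions. It held 31.9% of its EGF/FGF level in BMP and 49.5% in BMP/FGF. The log2 fold change with FGF2 was 0.63 (SE 0.07, FDR = 2.36e-06), the smallest of the 8 rises over both lines and in BL6. In ANS4 it was 0.78, above Spred1 at 0.58 and Spry2 at 0.75.

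The pair of phosphatase genes parted. Dusp6, a cytoplasmic phosphatase that acts chiefly on ERK, had a deep fall and a clear rise with FGF2, while Dusp4, a nuclear phosphatase, fell modestly and to nearly the same level in both quiescent states. Dusp6 (ENSMUSG00000019960, chr10:99263231-99267489, plus strand) had 233, 235, 246 and 243 CPM in EGF/FGF, 11.04, 12.8, 13.4 and 14.0 CPM in BMP, and 27.1, 29.8, 33.3 and 36.5 CPM in BMP/FGF. The lowest BMP/FGF library lay well above the highest BMP library, and every EGF/FGF library lay far above both. The rise with FGF2 was 1.30 (SE 0.08, FDR = 1.23e-09) on the log2 scale, or 2.46-fold. The fall in BMP against EGF/FGF was -4.22 (SE 0.07, FDR = 1.67e-17), an 18.7-fold lower level and the deepest of the 10 over both lines, although in ANS4 Etv4 fell further (-4.50, against -4.29 for Dusp6). BMP/FGF held 13.2% of the EGF/FGF level.

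Dusp4 (ENSMUSG00000031530, chr8:34807297-34819894, plus strand) had 24.6, 29.7, 26.8 and 26.4 CPM in EGF/FGF, 17.7, 15.5, 21.6 and 19.5 CPM in BMP, and 16.4, 15.4, 19.6 and 19.99 CPM in BMP/FGF. The 2 quiescent conditions overlapped and both lay below EGF/FGF. Its log2 fold change in BMP/FGF against BMP was -0.06 (SE 0.10, FDR = 0.657), and in BMP against EGF/FGF -0.54 (SE 0.09, FDR = 3.35e-05).

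The PEA3 factors parted in the same way. Etv4 and Etv5 fell strongly in BMP against EGF/FGF and rose with FGF2. Etv1 fell less, to 76.6% of its proliferating level in BMP and 70.1% in BMP/FGF over both lines. Etv4 (ENSMUSG00000017724, chr11:101769742-101785371, minus strand) had 76.3, 80.1, 81.3 and 79.2 CPM in EGF/FGF, 2.98, 3.93, 5.65 and 6.20 CPM in BMP, and 14.8, 13.8, 15.7 and 14.4 CPM in BMP/FGF. The conditions did not overlap, and the coefficient of variation of 31.9% in BMP was the largest of the 30 groups of 4 libraries. Its log2 fold change with FGF2, 1.65 (SE 0.13, FDR = 4.33e-08), was the largest of the 10 over both lines and the only one above 1.5 (0.901% of tested genes were higher by that rule). It was 1.49 without ANS4 BMP replicate 1 and 1.34 in BL6, both under 1.5, and in BL6 Dusp6 rose as much, by 1.35. Etv4 fell by 4.08 (SE 0.12, FDR = 3.74e-15) in BMP against EGF/FGF on the log2 scale, to 5.91% of the EGF/FGF level.

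Etv5 (ENSMUSG00000013089, chr16:22381309-22439719, minus strand) had 476, 494, 492 and 469 CPM in EGF/FGF, 51.6, 54.3, 77.9 and 88.1 CPM in BMP, and 130, 127, 143 and 138 CPM in BMP/FGF. All libraries were ordered by condition, and the 2 lines were furthest apart in BMP. The log2 fold change with FGF2 was 1.00 (SE 0.10, FDR = 7.18e-07), and Etv5 held 13.9% of its EGF/FGF level in BMP and 27.7% in BMP/FGF.

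Etv1 (ENSMUSG00000004151, chr12:38779380-38870484, plus strand) had 203, 182, 203 and 213 CPM in EGF/FGF, 129, 125, 177 and 189 CPM in BMP, and 136, 141, 148 and 136 CPM in BMP/FGF. The BMP libraries overlapped both other conditions because the ANS4 pair lay low and the BL6 pair high. Its log2 fold change in BMP/FGF against BMP was -0.13 (SE 0.08, FDR = 0.244) over both lines, and in BMP against EGF/FGF -0.38 (SE 0.08, FDR = 0.000447).

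**Figure D2:**
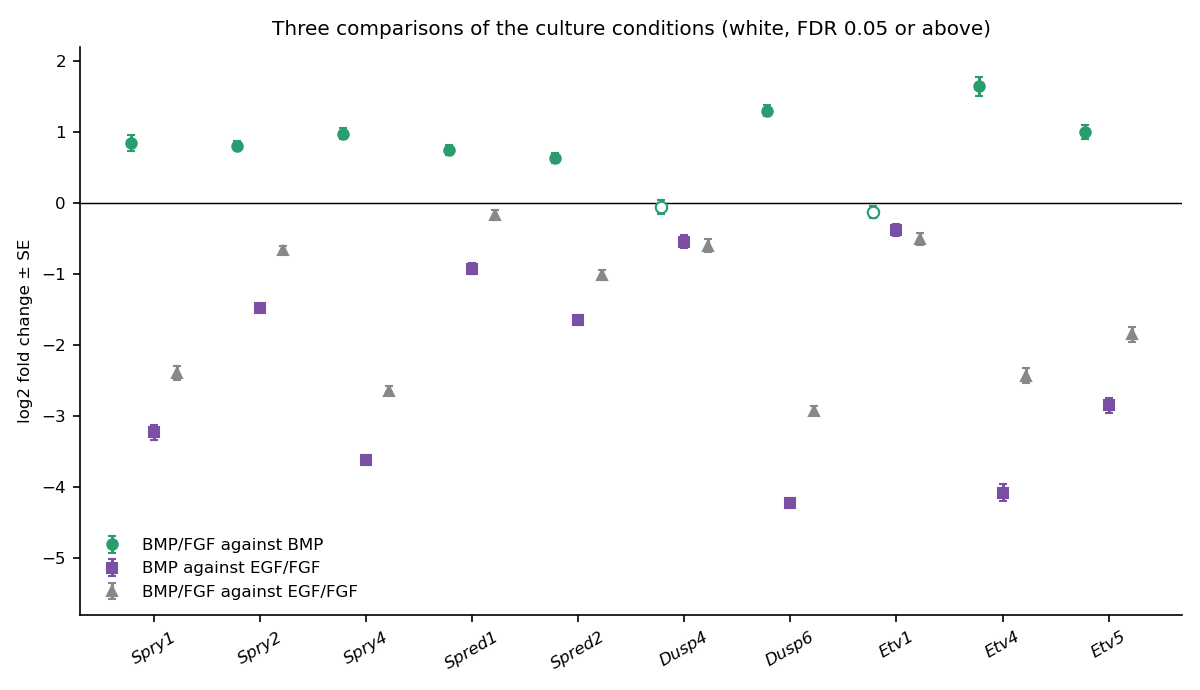
Log2 fold change of each gene with its SE in BMP/FGF against BMP (green circles), BMP against EGF/FGF (purple squares) and BMP/FGF against EGF/FGF (grey triangles), white symbols not passing FDR 0.05. Over both lines, Dusp6 and Etv4 have the deepest falls, -4.22 and -4.08, and the largest rises with FGF2, 1.30 and 1.65, while Dusp4 and Etv1 stay near 0 in BMP/FGF against BMP.

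Set by size, 6 of the 10 genes were lower by more than 1.5 on the log2 scale in BMP against EGF/FGF, namely Spry1, Spry4, Spred2, Dusp6, Etv4 and Etv5 (6.95% of tested genes were lower by that rule). Likewise 5 genes were in BMP/FGF against EGF/FGF, the same ones without Spred2 (6.08% of tested genes). Proliferation markers moved in the same direction as the 10 genes against EGF/FGF, with 8 of 8 lower in both quiescent states, and in the other direction with FGF2, with 8 of 8 lower in BMP/FGF than in BMP. All 6 neuroblast markers were also lower in BMP/FGF than in BMP. Of tested genes, 21.3% were lower in that comparison, and 38.8% in BMP and 38.0% in BMP/FGF against EGF/FGF. The part of cell cycle state or of neuroblasts in the levels of the 10 genes was not tested.

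Levels were compared between genes as CPM per kb of the longest protein-coding transcript in GENCODE vM21. In EGF/FGF, Etv5 was the most abundant at 121 ± 3.03 (SD, n = 4), followed by Spry2 at 89.0 ± 8.59, Dusp6 at 85.6 ± 2.31 and Spred1 at 67.3 ± 3.72, and Dusp4 was the least abundant at 9.81 ± 0.768. Spry2 and Dusp6 did not differ beyond their SD, nor did Spry4 at 27.8 ± 1.16 and Spry1 at 27.4 ± 0.933. In BMP the order was headed by Spred1 at 35.5 ± 2.01 and Spry2 at 31.98 ± 2.09, and Dusp6 stood at 4.59 ± 0.460 and Etv4, the lowest, at 1.96 ± 0.624. In BMP/FGF, Spred1 at 59.9 ± 6.17 and Spry2 at 56.0 ± 2.31 were again first and within their SD of each other, with Etv5 at 33.8 ± 1.84 next. The place of Etv1 depends on the length taken, since its 10 coding transcripts have a median length of 1721.5 bases and a longest of 6576. Its EGF/FGF level was 30.5 with the longest and 116 with the median length, sixth and second among the 10. By median length Etv1 also headed the 10 in BMP, at 90.1 against 57.3 for Spred1. In BMP/FGF it came between Spred1 at 96.6 and Spry2 at 55.97. Other genes changed place in EGF/FGF by median length. Spred1 at 109 then stood above Dusp6 at 92.9 and Spry2 at 89.0, and Spry1 at 30.6 above Spry4 at 27.8. The orders above therefore hold for the longest transcripts.

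The size of several responses differed between the lines. For BMP/FGF against BMP, 4 of the 10 genes had a line difference at FDR under 0.05 (13.5% of tested genes did), and so did 4 in BMP against EGF/FGF (9.02% of tested genes). Between BMP/FGF and EGF/FGF edgeR called 0 of the 10 (4.98% of tested genes), and DESeq2 also called 0. In edgeR 4 had an unadjusted p under 0.05, a looser rule for which the share of all tested genes was not counted. Etv5 rose by 1.28 (SE 0.07) on the log2 scale in ANS4 and by 0.76 (SE 0.07) in BL6, a difference of -0.52 (SE 0.10, FDR = 0.00233). Etv4 rose by 2.05 (SE 0.13) in ANS4 and 1.34 (SE 0.12) in BL6, a difference of -0.71 (SE 0.19, FDR = 0.0189). Etv1 had 0.12 (SE 0.07, FDR = 0.198) in ANS4 and fell by 0.37 (SE 0.07, FDR = 0.000348) in BL6, a difference of -0.49 (SE 0.10, FDR = 0.00369). Spred1 went the other way, rising by 0.58 (SE 0.07) in ANS4 and 0.92 (SE 0.07) in BL6, with a difference of 0.35 (SE 0.10, FDR = 0.0302).

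For the Etv genes the gap between the lines was widest in the BMP libraries. Mean Etv5 was 52.9 CPM in ANS4 and 83.0 in BL6 in BMP, but 485 and 480 in EGF/FGF and 128 and 140 in BMP/FGF. Mean Etv4 was 3.45 and 5.92 CPM in BMP, against 78.2 and 80.2 in EGF/FGF and 14.3 and 15.0 in BMP/FGF, and mean Etv1 was 127 and 183 CPM in BMP. Accordingly, in BMP against EGF/FGF the fall was shallower in BL6 by 0.66 for Etv5 (SE 0.10, FDR = 0.000424), 0.74 for Etv4 (SE 0.17, FDR = 0.0132), 0.41 for Etv1 (SE 0.10, FDR = 0.0143) and 0.54 for Spry1 (SE 0.16, FDR = 0.0429). Of the 6 pairs of replicates the BL6 BMP pair was the least alike, with a chi-square per degree of freedom over genes of 12.4 where the other pairs had 2.14 to 4.76. Marker sums also differed between the lines in BMP. The neuroblast sum was 1485 to 1585 CPM in BL6 BMP and 911 to 914 in ANS4 BMP, and the proliferation sum 536 to 608 and 415 to 433. The sum of 8 oligodendrocyte lineage markers was 1105 to 1271 and 812 to 842. Not all of this was particular to BMP. In EGF/FGF the proliferation sum was 2904 to 2925 CPM in BL6 and 2463 to 2474 in ANS4, and the neuroblast sum 495 to 518 and 460 to 486. In BMP/FGF the proliferation sum was lower in BL6, at 297 CPM against 306 to 314. The neuroblast sum was also lower in BL6 there, at 434 to 463 CPM against 480 to 485. So was the oligodendrocyte lineage sum, at 950 to 963 CPM against 993 to 1037. The part of these markers in the line differences was not tested. Line, strain and culture history cannot be told apart with 1 line per strain.

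**Figure D3:**
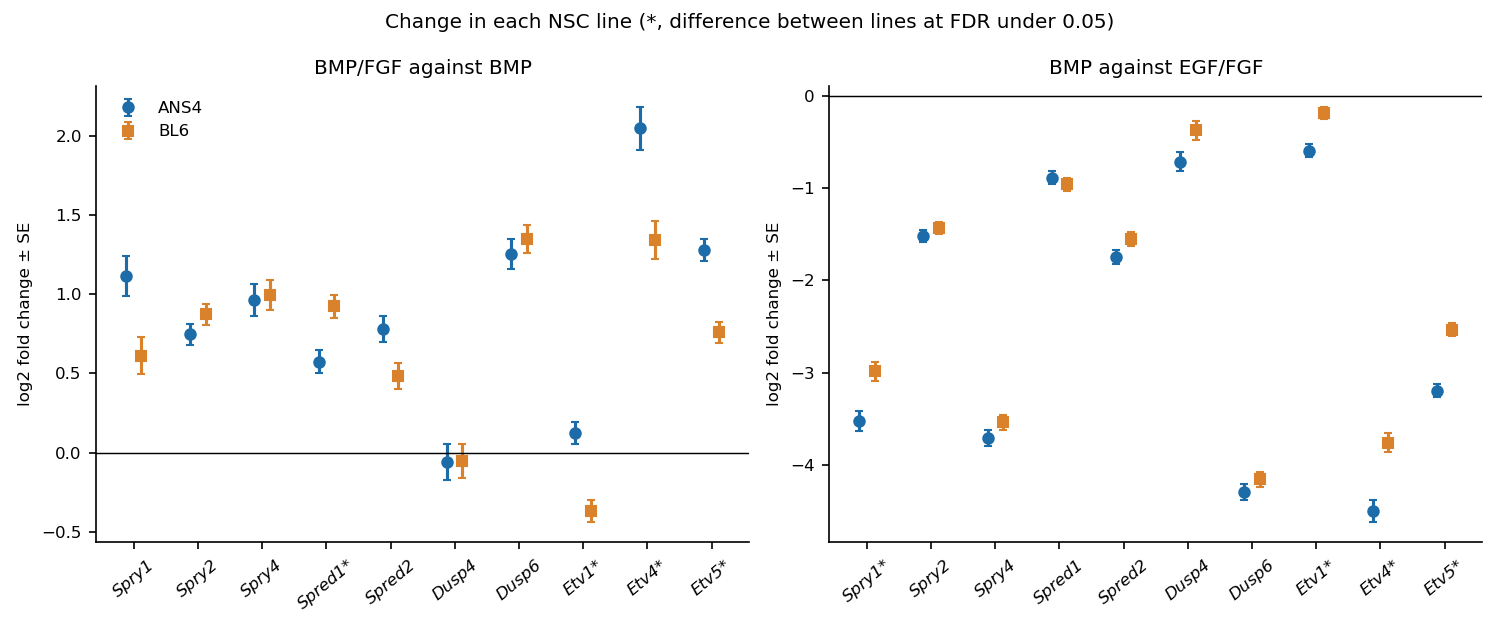
Log2 fold change with its SE in ANS4 (blue circles) and BL6 (orange squares) for BMP/FGF against BMP on the left and BMP against EGF/FGF on the right, with an asterisk where the difference between the lines has FDR under 0.05. Etv5, Etv4 and Etv1 carry an asterisk in both panels, with BL6 below ANS4 on the left and above it on the right.

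The line difference of Etv5 was kept in all 18 alternative settings in both comparisons, and that of Etv1 in all 18 in BMP/FGF against BMP. The count of 4 in BMP/FGF against BMP fell to 2 without ANS4 BMP replicate 1, ANS4 BMP/FGF replicate 1 or BL6 BMP/FGF replicate 2, since Spred1 and Etv4 were then lost. Spred1 was lost in 7 of 18 settings, with FDR up to 0.138. The count of 4 in BMP against EGF/FGF fell to 2 without ANS4 EGF/FGF replicate 1, ANS4 BMP replicate 1, ANS4 BMP replicate 2 or BL6 EGF/FGF replicate 1, and Spry1 was lost in 15 of 18 settings.

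Other genes of the pathway moved in both directions. Of 28 other ERK output and feedback genes, 25 were tested (not Spry3, Dusp2 and Dusp9). In BMP/FGF against BMP 10 rose and 5 fell (20.1% and 21.3% of tested genes). Another 10 did not pass, and the median log2 fold change was 0.022. The largest rise was that of Fosl1, an AP-1 subunit, at 1.96 (SE 0.68, FDR = 0.029), which rests on 0 to 4 counts per library in BMP and 4 to 10 in BMP/FGF. The largest fall was that of Epha4, an ephrin receptor, at -1.32 (SE 0.11, FDR = 1.1e-07). In BMP against EGF/FGF, 9 of the 25 rose and 13 fell (40.8% and 38.8% of tested genes), and 3 did not pass.

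Receptor transcripts changed in both directions. Of 9 FGF and EGF receptor genes 8 were tested, without Fgfr4. With FGF2, Fgfrl1, an FGF receptor that lacks a kinase domain, rose by 0.63 (FDR = 9.13e-07), Erbb3 by 0.63 (FDR = 0.0417), Egfr by 0.36 (FDR = 0.000677) and Fgfr3 by 0.19 (FDR = 0.0441) on the log2 scale. Erbb4 fell by 0.74 (FDR = 0.00479) and Fgfr2 by 0.38 (FDR = 0.000235). Fgfr1 had 0.10 and Erbb2 -0.17, and neither passed. By line, Fgfr3 rose by 0.39 in BL6 and had -0.0052 (FDR = 0.964) in ANS4, a difference at FDR = 0.0115, and Egfr rose by 0.55 in BL6 and 0.16 in ANS4, a difference at FDR = 0.00536. Erbb3, at 1.09 CPM in BMP and 1.69 in BMP/FGF, rose by 1.08 in BL6 and had 0.19 (FDR = 0.672) in ANS4, with a difference that did not pass (FDR = 0.199).

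Of 27 genes of the Ras-Raf-MEK-ERK cascade and its adaptors, 4 rose and 9 fell with FGF2 (20.1% and 21.3% of tested genes). All of these changes were by less than 0.5 on the log2 scale, and the median of the 27 was -0.12. The extremes were Rras, a Ras-related GTPase, at 0.28 (FDR = 0.0205) and Rps6ka2, a kinase downstream of ERK, at -0.46 (FDR = 5e-05). Of 15 other ETS factors and Cic, 12 were tested (not Etv2, Fli1 and Erg). With FGF2, 0 rose and 1 fell (20.1% and 21.3% of tested genes). The 1 was Elk1, which fell by 0.28 (FDR = 0.00143) on the log2 scale.

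Genes for partners of Sprouty and Spred proteins were also mixed, with 2 of 8 higher and 4 lower with FGF2 (20.1% and 21.3% of tested genes). Cav1, the caveolin that binds Sprouty, rose by 1.14 (FDR = 1.96e-07), and Sh3kbp1 by 0.34 (FDR = 0.0061). Cblb, a ubiquitin ligase, fell by 0.53 (FDR = 1.57e-06), Dyrk1a by 0.40 (FDR = 9.02e-05), Cbl by 0.35 (FDR = 0.00388) and Nf1, the neurofibromin gene, which also counts in the cascade, by 0.29 (FDR = 0.00243). Tesk1 at -0.17 and Ppp2ca at 0.06 did not pass.

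Targets of BMP signaling were read as a check of the treatment. In BMP against EGF/FGF 5 of 6 rose, Id4 by 3.73, Smad6 by 2.11, Id2 by 2.08, Smad7 by 1.63 and Id1 by 1.29 on the log2 scale, and Id3 fell by 0.59, with a median of 1.85. The same 5 were higher and Id3 lower in BMP/FGF against EGF/FGF, with a median of 0.85. Of tested genes, 40.8% were higher in BMP and 40.9% in BMP/FGF against EGF/FGF. With FGF2 beside BMP4, Smad6 fell by 1.39 (FDR = 0.000315), Smad7 by 0.93 (FDR = 0.000196), Id2 by 0.58 (FDR = 1.26e-05), Id4 by 0.51 (FDR = 0.000513) and Id1 by 0.31 (FDR = 0.0134), all on the log2 scale. Id3 had 0.06 (FDR = 0.714).

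**Figure D4:**
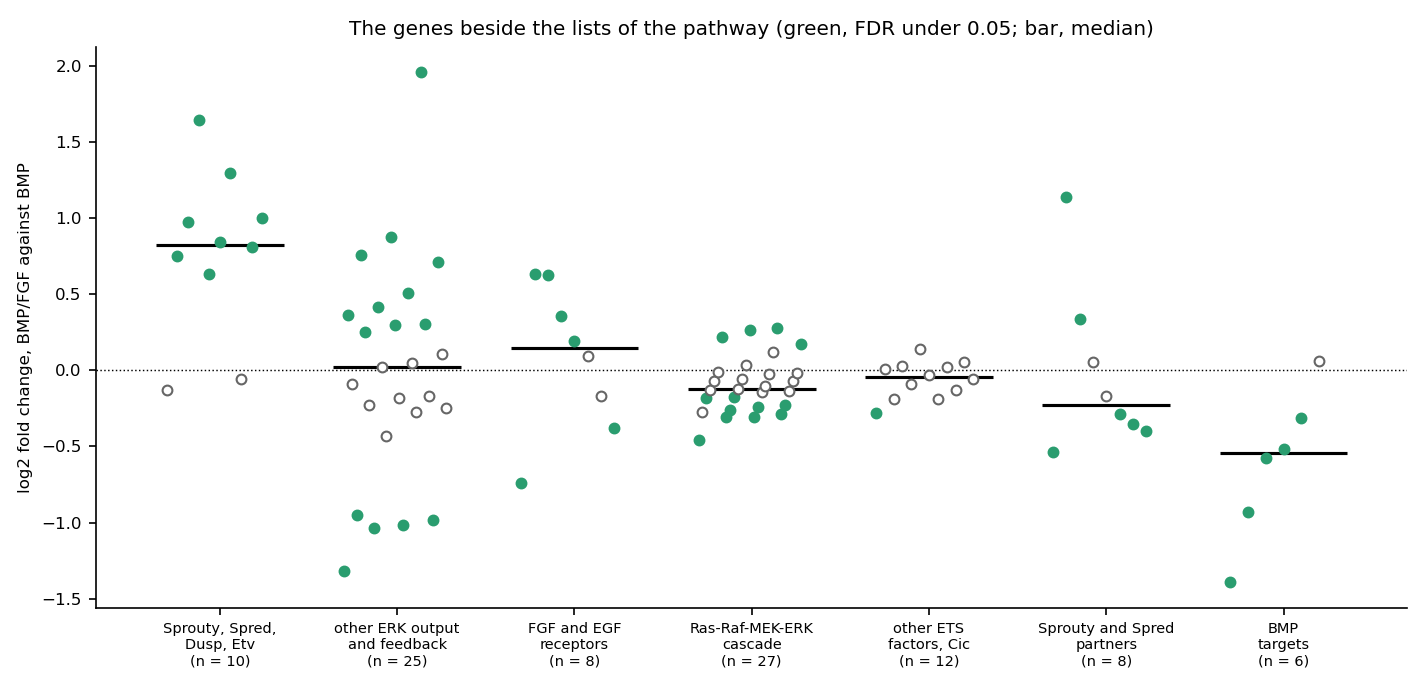
Log2 fold change in BMP/FGF against BMP for the 10 genes and for each tested gene of 6 pathway lists, green where FDR was under 0.05 and white otherwise, with the median of each list as a bar. The 10 genes have a median of 0.83, the other ERK output genes 0.022 with values on both sides of 0, and the BMP targets lie mostly below 0.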

How the data were processed

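RNA-seq was read in 12 mouse NSC libraries, with 4 per condition. Per the study's methods and processing notes, the authors trimmed reads with Trim Galore 0.5.0, obtained transcript estimates from the mm10 transcriptome by kallisto 0.44.0 and summed them to genes with tximport. The deposited values used are estimated counts given as whole numbers. A table of log2 values (DESeq2 1.27.32 rlog), deposited by the authors, served as an alternative only.

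Counts were analysed in R 4.3.3 with edgeR 4.0.16. Genes were filtered by filterByExpr (13312 tested, 4053 not), normalized by TMM, and fitted by glmQLFit with condition and line over the 12 libraries. Tests were two-sided, with Benjamini-Hochberg adjustment (FDR) over the tested genes. A gene passed at FDR under 0.05, and folds were also counted beyond 1.5 on the log2 scale. Line differences are interactions in a fit of the 6 groups. SE is the log2 fold change divided by the square root of F. Correlations used log2 CPM with a prior count of 2. Alternatives used DESeq2 1.42.0 and limma 3.58.1. Scripts were tested on simulated data.

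Named were the 10 genes, the largest rise and fall of each list past FDR, every gene of lists of at most 9, and the nearest gene of each of the 10 by correlation. The genes and lists were chosen with earlier results of these data known. The labels do not say whether replicates are separate cultures, so p-values measure the spread between these libraries, which may be technical.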

Additional observations from a re-analysis of the deposited data

Results flagged for a closer look

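The response of 5 genes differed between the lines by the interaction test, BL6 minus ANS4 on the log2 scale. In BMP/FGF against BMP the differences were 0.35 for Spred1, -0.49 for Etv1, -0.71 for Etv4 and -0.52 for Etv5. In BMP against EGF/FGF they were 0.54 for Spry1, 0.41 for Etv1, 0.74 for Etv4 and 0.66 for Etv5. The 2 comparisons share the BMP libraries, so the paired entries of Etv1, Etv4 and Etv5 are not independent. These are 8 of 30 differences tested. Of all tested genes, 13.5% had a line difference in BMP/FGF against BMP by the same rule. The share was 9.02% in BMP against EGF/FGF and 4.98% in BMP/FGF against EGF/FGF. No library stood apart from the other 3 of its condition by Dixon's test in any of the 30 groups of 4 libraries, where chance alone gives about 1 in 20. Each such group joins a pair from each line, which leaves that test little room to single out a library, and the BL6 BMP pair differed most (chi-square per degree of freedom 12.4, the other pairs 2.14 to 4.76).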

How the results depend on the processing

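Under every one of the 22 alternatives to the comparisons of conditions, 8 of the 10 genes were higher in BMP/FGF against BMP and 10 were lower in BMP against EGF/FGF. The count lower in BMP/FGF against EGF/FGF was 9 or 10, through Spred1. In BL6 alone, 1 gene, Etv1, was lower in BMP/FGF against BMP, and in ANS4 alone Etv1 turned to 0.12. The count of line differences in BMP/FGF against BMP was 2 to 5 when single libraries were left out. That in BMP against EGF/FGF was 2 to 4, and 2 with only the 8 libraries compared, where BMP/FGF against EGF/FGF gave 1. Line differences that were not called turned sign. In BMP/FGF against BMP these were Spry4 (-0.046 by library size alone, -0.089 to 0.149 without single libraries), Dusp4 (-0.068, and -0.079 to 0.099) and Dusp6 (-0.019 to 0.210). Against EGF/FGF, in BMP/FGF, they were Spry1 (-0.0041, and -0.0036 to 0.078) and Etv4 (-0.00757, and -0.030 to 0.094). The causes were not tested.

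Deviations of same-numbered libraries of a line had correlations between -0.07 and 0.05 over 13312 genes, each weighted alike. Such values cannot decide whether these libraries share a culture or batch, and the labels do not say. With the replicate number as a block, 8 genes were higher in BMP/FGF against BMP, Spred1 was lost in BMP/FGF against EGF/FGF (-0.17, FDR = 0.0696), and the line difference of Spry1 in BMP against EGF/FGF was lost (0.53, FDR = 0.0611).

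CPM per kb by median transcript length, an alternative chosen after seeing the data, moved 13 of 30 levels beyond 1 SD. Low counts limit Etv4 in BMP, at 54 to 119 per library.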

Other observations

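For each of the 10 genes, the tested gene outside the list with the most similar log2 CPM over the 12 libraries was looked up by Pearson's r. The libraries fall into 3 conditions that set most of each r, so these values describe likeness and carry no test. The nearest genes were Tagln2 for Spry1 (r = 0.997), Cdh13 for Spry2 (r = 0.995), Mettl1 for Spry4 (r = 0.998), Ptk2 for Spred1 (r = 0.990) and Pvr for Spred2 (r = 0.995). They were Mast4 for Dusp4 (r = 0.970), Klf10 for Dusp6 (r = 0.999), Tacc2 for Etv1 (r = 0.973), Angpt2 for Etv4 (r = 0.994) and Pvr again for Etv5 (r = 0.996). A gene picked for such likeness follows the changes of its partner, so its own folds are a description only. In BMP/FGF against BMP, Angpt2, a secreted ligand of the Tie2 receptor, was 3.01-fold higher and Klf10, a zinc finger factor, 1.82-fold. Tagln2, Cdh13, Mettl1, Ptk2 and Pvr were also higher. Mast4 and Tacc2, nearest to Dusp4 and Etv1, had log2 fold changes of -0.014 and -0.17. Within the list, Dusp6 was nearest to Spry4 (r = 0.997) and Etv4 to Etv5 (r = 0.997), and Etv1 and Spred1 were the least alike (r = 0.329).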
